A study of Mus musculus with 12 samples.

Results

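The homeostatic astrocyte genes described here are Aqp4, Aldh1l1, Slc1a2, Slc1a3, Gja1, Gjb6, Glul, Sox9, S100b and Fgfr3. They were chosen by name, as genes that resting astrocytes are known for, and with earlier results of these data known. Each was found once among the 46078 genes of the count table, so all 10 members were present. The RNA came from the ventrolateral white matter of the spinal cord of C57Bl6 mice, cut out of frozen sections by laser capture microdissection. Young naïve and middle-aged naïve mice had no injection. Young injured and middle-aged injured mice had received lysolecithin, a detergent that strips myelin, into this white matter 72 hours earlier. By the study's methods the young animals of this experiment were 6 weeks old and the middle-aged animals 8 months old. Each group had 3 sequenced replicates, called pools here because tissue of 5 animals was pooled. The labels do not say whether the 3 replicates of a group came from different animals, and p-values measure only the spread between them, which may be partly technical. Naïve mice had no sham injection, so lysolecithin and the act of injecting cannot be told apart.

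Astrocytes keep the fluid around axons stable. They take up potassium and glutamate, convert glutamate to glutamine, pass ions and metabolites through gap junctions to each other and to oligodendrocytes, and place water channels on the end-feet that wrap blood vessels. After injury, reactive astrocytes raise intermediate filament and secreted proteins, while genes of the resting programme can go down. The measurement was bulk RNA, in which a level is a share of the RNA sequenced. Fewer astrocytes, less of an RNA in each astrocyte and more RNA from other cells cannot be told apart in it.

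Total counts per pool ranged from 9834447 to 12807437, and member counts from 154 to 26779, so all 10 members passed the filter on low counts that left 15866 genes for testing. White matter was checked by 10 oligodendrocyte markers, whose summed level in young naïve pools was 90480 to 106888 CPM, the normalised read count used throughout, which is a gene's share of its library scaled by the trimmed mean of M-values (TMM). Neuron markers were also present, at 1264 to 3278 CPM in sum in young naïve pools, of which Snap25, a synaptic vesicle fusion protein, had 661 to 1919 CPM. Ependymal markers summed to at most 22.6 CPM in any pool. Schwann cell markers summed to at most 5.56 CPM in every pool except 1 young injured pool at 32.0 CPM.

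After injury 9 of the 10 members were lower at both ages, and Aldh1l1 was the exception. In young mice 9 of 10 fell by edgeR's quasi-likelihood test with Benjamini-Hochberg adjustment, against 26.3% of all genes tested. In middle-aged mice 9 of 10 fell, against 29.3% of all genes. The 9 genes were the same at both ages. None of the 10 passed the test in the other direction, in which 28.3% of all genes were called in young and 29.2% in middle-aged mice. Among all genes 4483 were higher and 4177 lower in young mice, a split that became 5380 and 3236 with library totals alone. For these 9 genes every injured pool was below every naïve pool of the same age, which held for 32.2% of all genes in young and 29.7% in middle-aged mice. The median log2 fold change of the 10 members was -1.30 in young and -1.43 in middle-aged mice, and the median of all genes was 0.00 and -0.03. The summed level of the members was 9239 to 9274 CPM in young naïve pools and 3052 to 3591 CPM in young injured pools. In middle-aged mice it was 7953 to 9226 CPM in naïve and 2250.2 to 3236 CPM in injured pools. The injured pools thus held 36.5% ± 3.08 (SD, n = 3) of the naïve mean in young and 30.6% ± 6.51 (SD, n = 3) in middle-aged mice.

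**Figure D1:**
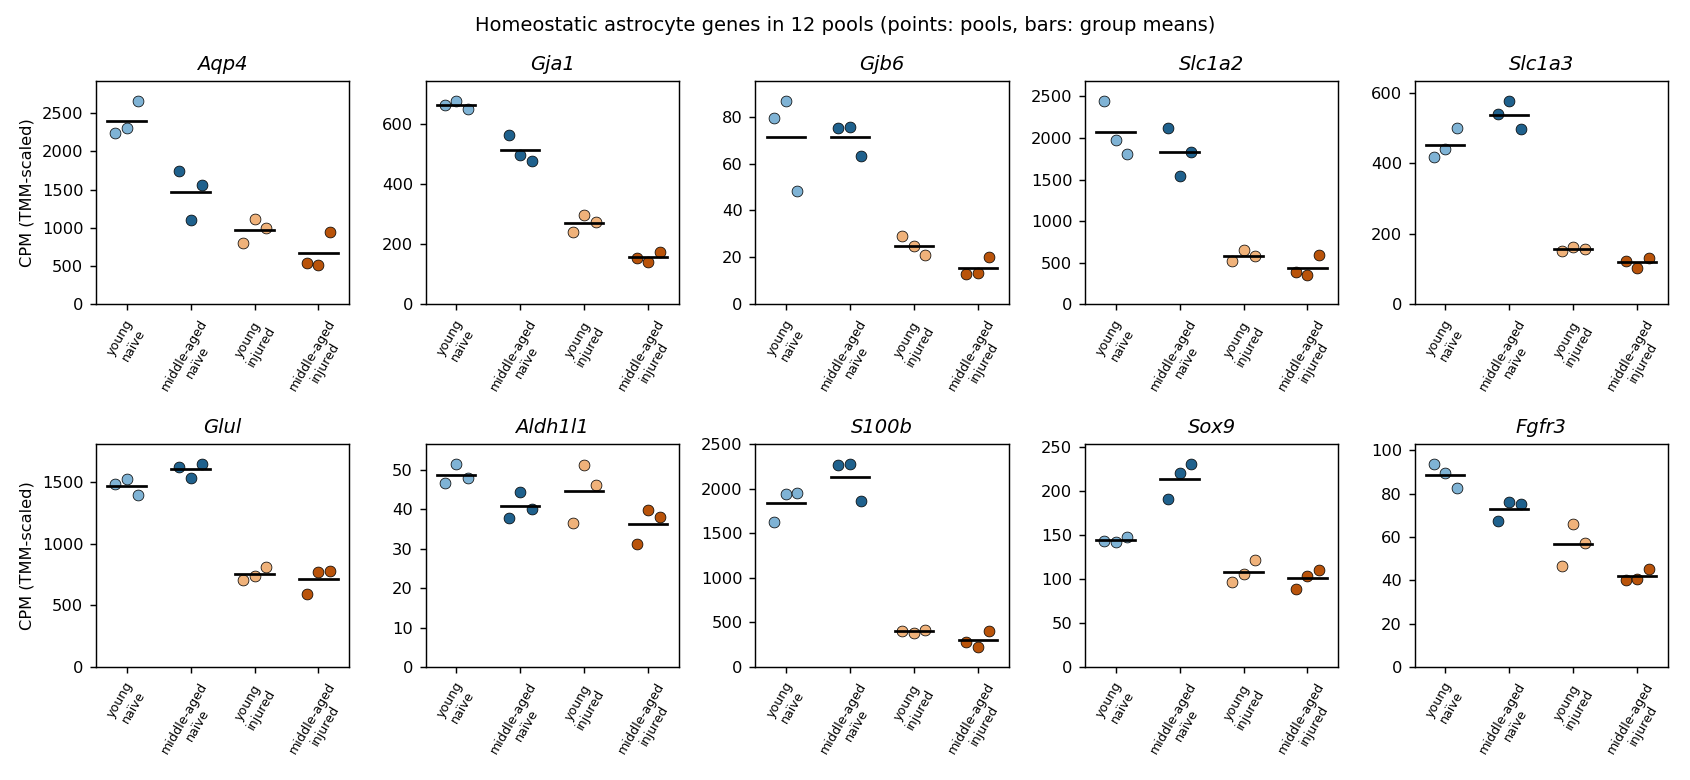
Level of each of the 10 members in TMM-scaled CPM (y axes, from 0) in the 3 pools of each of 4 groups (x axes), with points for pools and bars for group means. For 9 members the injured pools lie below the naïve pools of the same age, and for Aldh1l1 they overlap.

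Aqp4, the water channel of astrocyte end-feet (GRCm38 chromosome 18, 15389496 to 15410982, minus strand), was at 2245, 2308 and 2656 CPM in the young naïve pools and at 807, 1111 and 1001 CPM in the young injured pools. Middle-aged naïve pools had 1750.0, 1109 and 1568 CPM and middle-aged injured pools 544, 514 and 945 CPM. Injured pools were below naïve pools at both ages, but middle-aged injured pool 3 stood well above the other two. Aqp4 fell by 1.30 on the log2 scale in young mice (SE 0.22, adjusted p = 0.000187) and by 1.14 in middle-aged mice (SE 0.22, adjusted p = 0.000493).

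Gja1 encodes connexin 43, the main gap junction protein of astrocytes (chromosome 10, 56377330 to 56402513, plus strand). It had 663, 674 and 648 CPM in young naïve pools against 241, 298 and 272 CPM in young injured pools. In middle-aged mice it had 561, 495 and 477 CPM without injury and 155, 141 and 176 CPM with it. The spread within each group was small beside the gap between groups. Gja1 fell by 1.29 in young (SE 0.12, adjusted p = 4.42e-07) and by 1.70 in middle-aged mice (SE 0.12, adjusted p = 2.74e-08).

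Gjb6, which encodes connexin 30, the second astrocyte connexin (chromosome 14, 57123303 to 57133611, minus strand), had 79.4, 86.5 and 48.2 CPM in young naïve pools and 28.9, 24.9 and 20.9 CPM in young injured pools. Its middle-aged naïve pools were at 75.3, 75.8 and 63.3 CPM and its middle-aged injured pools at 12.78, 13.6 and 20.3 CPM. Young naïve pool 3 was low for Gjb6 yet still above every injured pool. Gjb6 fell by 1.52 in young (SE 0.22, adjusted p = 4.91e-05) and by 2.20 in middle-aged mice (SE 0.23, adjusted p = 1.62e-06).

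Slc1a2 encodes GLT-1, the transporter that clears most extracellular glutamate (chromosome 2, 102658659 to 102790784, plus strand). Young naïve pools had 2439.7, 1980.5 and 1802 CPM and young injured pools 526, 652 and 580.1 CPM. Middle-aged naïve pools had 2116, 1545 and 1829.8 CPM and middle-aged injured pools 384, 358 and 588 CPM. The lowest naïve pool was above the highest injured pool by more than the spread within any group, and Slc1a2 fell by 1.82 in young (SE 0.19, adjusted p = 1.73e-06) and by 2.05 in middle-aged mice (SE 0.19, adjusted p = 5.10e-07).

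Slc1a3 encodes GLAST, the other astrocyte glutamate transporter (chromosome 15, 8634124 to 8710764, minus strand). It was at 418, 440.2 and 502 CPM in young naïve and 153, 164 and 158 CPM in young injured pools. In middle-aged mice the naïve pools had 539.6, 576 and 497 CPM and the injured pools 124, 102 and 132 CPM. Slc1a3 fell by 1.52 in young (SE 0.12, adjusted p = 1.09e-07) and by 2.17 in middle-aged mice (SE 0.12, adjusted p = 3.61e-09). The size in middle-aged mice was larger, a difference of -0.65 on the log2 scale (SE 0.17) that did not pass the test of the difference itself (adjusted p = 0.147).

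Glul, glutamine synthetase, which turns the glutamate taken up into glutamine (chromosome 1, 153899944 to 153909723, plus strand), had 1482, 1522 and 1393 CPM in young naïve and 708, 737 and 808 CPM in young injured pools. Middle-aged naïve pools had 1625, 1536 and 1646 CPM and middle-aged injured pools 594, 772 and 780.2 CPM. Glul fell by 0.97 in young (SE 0.12, adjusted p = 7.90e-06) and by 1.16 in middle-aged mice (SE 0.12, adjusted p = 1.12e-06). Of its 31-base words, 20.4% also occur in transcripts of other genes, most of them in the pseudogene Glns-ps1, which itself was counted at 0 or 1 reads in every pool.

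Aldh1l1 encodes a folate enzyme used as a general astrocyte label (chromosome 6, 90486427 to 90600203, plus strand). Its young naïve pools had 46.6, 51.5 and 48.0 CPM and its young injured pools 36.6, 51.2 and 46.1 CPM. Middle-aged naïve pools had 37.9, 44.5 and 40.1 CPM and middle-aged injured pools 31.1, 39.8 and 38.2 CPM. Injured and naïve pools overlapped at both ages. The log2 fold change was -0.13 in young (SE 0.15, adjusted p = 0.502) and -0.17 in middle-aged mice (SE 0.15, adjusted p = 0.359), and the injured pools held 91.7% ± 15.2 and 89.1% ± 11.3 (SD, n = 3 each) of the naïve mean. Its direction in young mice was not stable, being 0.07 when libraries were scaled by totals alone, a scaling that moved the median of all genes to 0.20 in young mice, and 0.00 without young injured pool 1. Set against the mean log2 CPM of the other 9 members in the same pool, Aldh1l1 differed by -3.53 to -3.41 log2 units in young naïve pools and by -2.47 to -2.16 in young injured pools. The same gap was -3.83 to -3.50 in middle-aged naïve and -2.35 to -1.85 in middle-aged injured pools. The gap describes a gene singled out after its values were seen and was not tested. A further limit is that 499 exon bases of Aldh1l1 (11.0%) overlap the antisense gene Gm15756, which had 60 to 104 counts per pool, and the sources used here do not state whether counting used strand.

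S100b encodes a calcium-binding protein of astrocytes that is also known in oligodendrocytes (chromosome 10, 76253853 to 76261159, plus strand). Its young naïve pools had 1629, 1944 and 1946 CPM and its young injured pools 409, 382 and 415 CPM. In middle-aged mice the naïve pools had 2262, 2275 and 1857 CPM and the injured pools 276, 224 and 401 CPM. S100b had the lowest log2 fold change of the 10 members at both ages, -2.19 in young (SE 0.18, adjusted p = 1.56e-07) and -2.83 in middle-aged mice (SE 0.18, adjusted p = 1.38e-08). Counted from the lowest log2 fold change, it was number 393 of the 15866 genes in young and number 291 in middle-aged mice.

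Sox9, a transcription factor needed for astrocyte formation (chromosome 11, 112782224 to 112787760, plus strand), had 143, 143 and 148 CPM in young naïve and 97.2, 106 and 122 CPM in young injured pools. Middle-aged naïve pools had 192, 221 and 231 CPM and middle-aged injured pools 88.5, 104 and 111 CPM. The injured levels of both ages overlapped, whereas the naïve levels did not. Sox9 fell by 0.42 in young (SE 0.12, adjusted p = 0.0104) and by 1.09 in middle-aged mice (SE 0.12, adjusted p = 3.70e-06). The call in young mice was lost without young injured pool 1, where the log2 fold change was -0.34, and with library totals alone, where it was -0.22.

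Fgfr3, a receptor for fibroblast growth factors carried by astrocytes (chromosome 5, 33721674 to 33737068, plus strand), was at 93.7, 89.5 and 82.9 CPM in young naïve and 46.5, 66.2 and 57.2 CPM in young injured pools. Its middle-aged naïve pools had 67.3, 76.1 and 75.2 CPM and its middle-aged injured pools 40.3, 40.9 and 45.2 CPM. Fgfr3 fell by 0.65 in young (SE 0.13, adjusted p = 0.000918) and by 0.79 in middle-aged mice (SE 0.14, adjusted p = 0.000169). It shares 998 exon bases (13.9%) with G630022F23Rik on the opposite strand, which had 0 to 27 counts per pool.

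**Figure D2:**
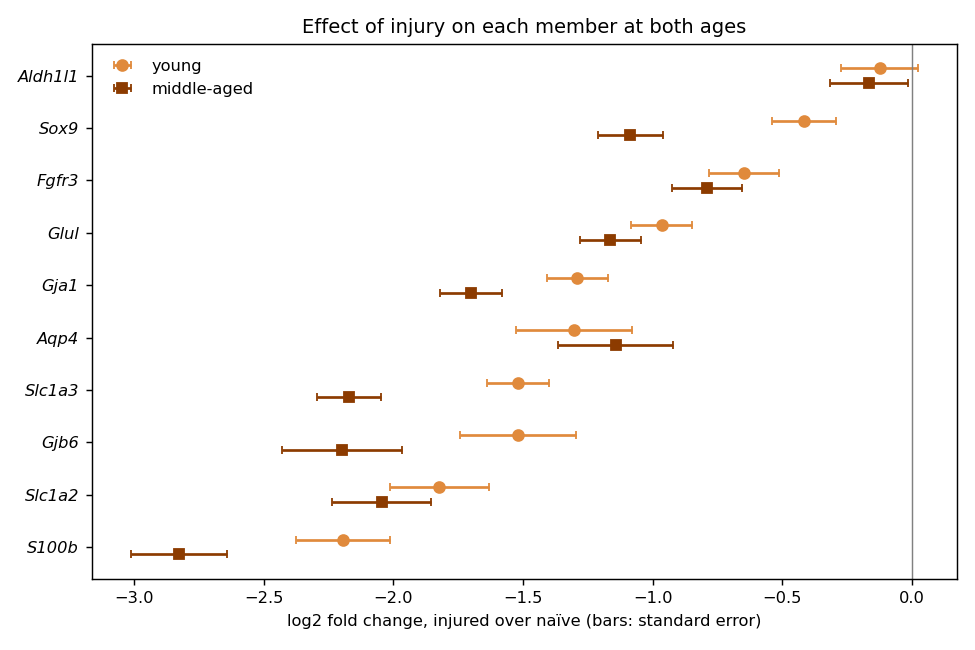
Log2 fold change of each member, injured over naïve (x axis), in young mice (circles) and middle-aged mice (squares), with bars for 1 standard error. S100b has the lowest value at both ages and Aldh1l1 the highest, near 0.

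To compare levels between members, CPM was divided by the exon length of each gene in kilobases. On this scale young naïve white matter had S100b first (mean 1239.9 CPM per kilobase), then Glul (441), Aqp4 (386), Slc1a2 (158), Gja1 (64.5), Slc1a3 (53.1), Sox9 (35.0), Gjb6 (26.7), Fgfr3 (12.4) and Aldh1l1 (10.8). Neighbours in this order did not overlap between pools except Glul and Aqp4. In middle-aged injured white matter Glul came first (215) and S100b second (202), and their pools overlapped. Sox9 (24.4) lay above Gja1 (15.3) there, with no overlap, while in young naïve pools Gja1 had been the higher of both. Aldh1l1, last in young naïve pools, lay at 8.06 CPM per kilobase in middle-aged injured pools, above Fgfr3 at 5.88 without overlap, while its pools overlapped those of Gjb6, whose mean was 5.81. These lengths count every annotated exon base, so an isoform that lacks some of them is undervalued.

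**Figure D3:**
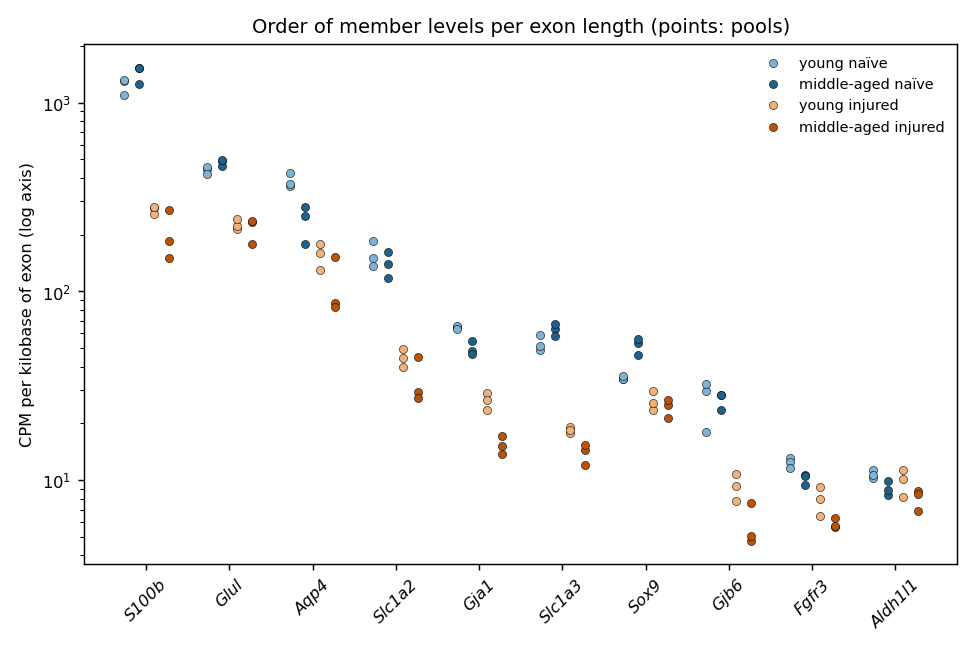
CPM per kilobase of exon (log y axis) for the 10 members, ordered by their young naïve mean (x axis), with 1 point per pool coloured by group. S100b leads in naïve pools, Glul and S100b overlap in middle-aged injured pools, and Aldh1l1 changes least across groups.

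Whether members that work together fell by the same amount was asked with ratios inside each pool, which do not depend on how libraries are scaled. The log2 ratio of Glul to Slc1a2 was -0.72, -0.38 and -0.37 in young naïve pools and -0.38, -0.01 and -0.15 in middle-aged naïve pools. In injured pools it was 0.43, 0.18 and 0.48 in young and 0.63, 1.11 and 0.41 in middle-aged mice. Every injured pool was above every naïve pool, so Glul and Slc1a2 transcripts were reduced unequally. The ratio of Glul to Slc1a3, the other uptake gene, was not tested. The mean shift was 0.87, with 0.85 in young and 0.90 in middle-aged mice (2-sided exact permutation test over pools within age, p = 0.005, the smallest that 400 arrangements can give, 0.015 adjusted over 3 pairs). For the glutamate transporters, Slc1a2 to Slc1a3, the shift was -0.10 (-0.30 in young, 0.11 in middle-aged mice, exact p = 0.56, adjusted p = 0.56). For the connexins, Gja1 to Gjb6, it was 0.35 (0.18 and 0.51, exact p = 0.085, adjusted p = 0.1275). With 1 pool left out at a time the adjusted p was 0.0375 to 0.3225. The lowest was without young naïve pool 3, in which Gjb6 was low, with a shift of 0.47. The injured pools of this ratio (3.10 to 3.59) did not overlap the naïve pools (2.71 to 2.91) in middle-aged mice, while in young mice they did.

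**Figure D4:**
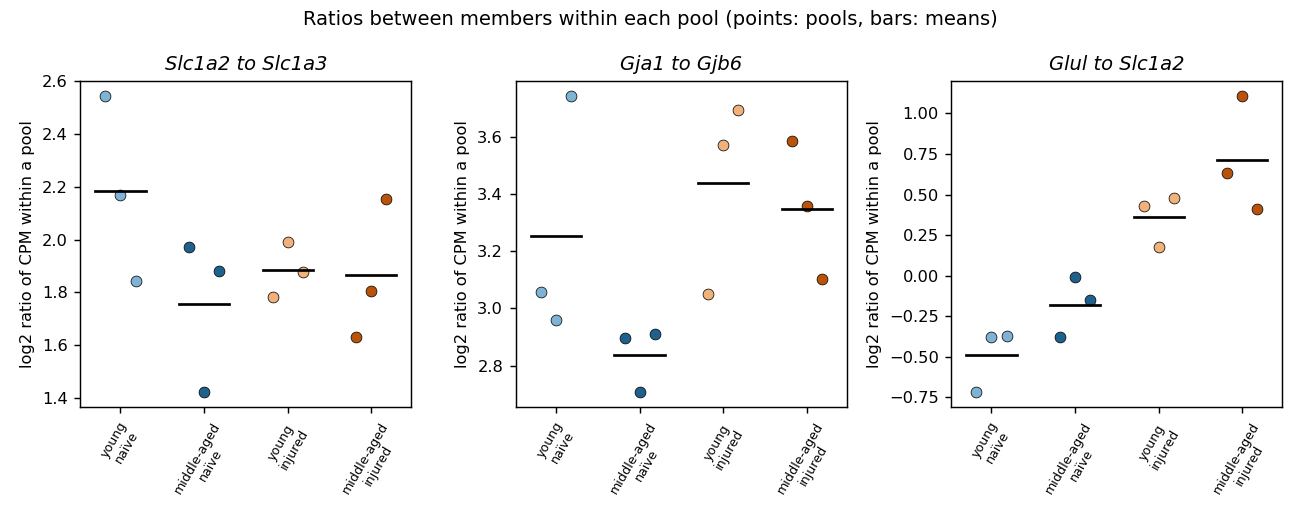
Log2 ratio of CPM between 2 members within each pool (y axes) in 4 groups (x axes), with points for pools and bars for means. For Glul to Slc1a2 all injured pools lie above all naïve pools, while the other ratios overlap, except Gja1 to Gjb6 in middle-aged mice, where the injured pools lie above the naïve pools.

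Age was compared next, first without injury. Of the 10 members, 1 was called higher in middle-aged than in young naïve pools, against 2.02% of all genes, and none was called lower by edgeR's test, against 1.78%. DESeq2 called Aqp4 (-0.70, adjusted p = 0.038) and Gja1 (-0.37, adjusted p = 0.039) lower as well, and edgeR called Aqp4 lower without the low-count filter (-0.72, adjusted p = 0.001) and without middle-aged injured pool 3 (-0.69, adjusted p = 0.043). The gene called higher was Sox9, at 145 ± 2.98 CPM in young and 214 ± 20.6 CPM in middle-aged naïve pools (SD, n = 3 each), a log2 fold change of 0.57 (SE 0.12, adjusted p = 0.0212). This call rested on few pools. It was lost without young naïve pool 1 (0.56), pool 2 (0.56) or pool 3 (0.59), without middle-aged naïve pool 3 (0.51), and when only the naïve pools were fitted (0.58), although the size barely moved. Middle-aged pools were all above young pools for Sox9 and Glul, a pattern of 7.77% of all genes, and all below them for Aqp4, Aldh1l1, Gja1 and Fgfr3, a pattern of 9.34%. Among these the values were -0.70 for Aqp4 (SE 0.22, adjusted p = 0.0988) and -0.37 for Gja1 (SE 0.12, adjusted p = 0.0979). The member median was -0.09 and that of all genes 0.01, and Gjb6 was at 71.3 ± 20.4 and 71.4 ± 7.06 CPM. Other lists also differed with age in these pools. Lower were 6 of 10 oligodendrocyte markers (median -0.85), and higher were 5 of 9 macrophage and monocyte markers, 3 of 6 microglia markers and 7 of 18 reactive astrocyte genes. The mitochondrial ribosomal RNA mt-Rnr2 took 9.90% to 12.4% of counts in young naïve and 13.9% to 15.4% in middle-aged naïve pools, against 7.61% to 10.2% in young injured and 7.67% to 12.4% in middle-aged injured pools. The part of these differences in the values of the members was not tested.

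In injured white matter all 10 members had a negative log2 fold change with age, with a median of -0.41 against 0.00 for all genes, but 1 of 10 was called lower, against 0.908% of all genes. None was called higher, against 0.24%. The called gene was Gja1, at 270.2 ± 28.5 CPM in young injured and 157 ± 17.4 CPM in middle-aged injured pools, a log2 fold change of -0.78 (SE 0.12, adjusted p = 0.00524). Its call held in every alternative, with adjusted p up to 0.046 when a pool was left out and up to 0.0091 otherwise. All middle-aged injured pools were below all young injured pools for Slc1a3, Gja1, Gjb6 and Fgfr3, as they were for 12.2% of all genes. Those not called had log2 fold changes of -0.41 for Slc1a3 (SE 0.12, adjusted p = 0.144), -0.68 for Gjb6 (SE 0.23, adjusted p = 0.237) and -0.43 for Fgfr3 (SE 0.14, adjusted p = 0.187). Middle-aged injured pool 3 was the highest of its group for every member except Aldh1l1, and its oligodendrocyte markers were also the highest, at 13359 CPM in sum against 9896 and 8614 CPM. In the same comparison 8 of 10 oligodendrocyte markers were lower (median -0.95, all 10 negative), as were 2 of 5 fibroblast markers (median -0.84), and their part in the values of the members was not tested. Without middle-aged injured pool 3 S100b was also called lower with age (log2 fold change -0.67).

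Whether injury acted differently at the 2 ages was tested as the difference of both injury effects. No member passed (0 of 10, against 0.139% of all genes in either direction). At an unadjusted p under 0.05 there were 5 of 10, namely Slc1a3, Sox9, S100b, Gja1 and Gjb6, against 9.92% of all genes, and DESeq2 called Slc1a3 and Sox9 after adjustment. Of the 10 differences 9 were negative, with a median of -0.32 beside -0.05 for all genes. The lowest were -0.68 for Gjb6 (SE 0.31, adjusted p = 0.498), -0.67 for Sox9 (SE 0.17, adjusted p = 0.151) and -0.65 for Slc1a3, and Aqp4 was at 0.16 (SE 0.31, adjusted p = 0.92). With library totals alone the median of all genes moved to -0.13 in this comparison, and the split of all genes called went from 9 positive and 13 negative to 8 and 23.

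Other genes of the same functions were listed by name, also with earlier results of these data known, and counted with the same fits. Each count below of genes that rose or fell by injury stands against the same shares of all genes. These were 28.3% higher and 26.3% lower in young mice, and 29.2% higher and 29.3% lower in middle-aged mice. Of 11 genes for potassium, water and junctions, 7 fell and 1 rose in young mice, and 9 fell and 1 rose in middle-aged mice, with medians of -1.13 and -1.49. Kcnj10, the Kir4.1 channel that takes up potassium, fell by 1.22 (SE 0.15) and 1.78 (SE 0.15), and Mlc1, a membrane protein of astrocyte end-feet, by 1.90 (SE 0.15) and 2.25 (SE 0.15). Dag1, dystroglycan, which links end-feet to the basal lamina, rose by 0.35 (SE 0.12, adjusted p = 0.021) and 0.55 (SE 0.12). Gjb2, connexin 26, another astrocyte connexin, had 59.1, 34.1 and 21.0 CPM in young injured and 11.95, 7.11 and 11.4 CPM in middle-aged injured pools. It was lower with age after injury (log2 fold change -1.91, SE 0.31, adjusted p = 0.0091), while its difference of injury effects was -1.68 (SE 0.43, adjusted p = 0.15). The fibroblast markers in the same pools summed to 1417.9, 1397.8 and 904 CPM in young injured and 734, 819.7 and 402 CPM in middle-aged injured pools, and the pool with the highest Gjb2 was the one with Schwann cell markers at 32.0 CPM. Their part in the values of Gjb2 was not tested.

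Of 11 genes for transmitter uptake and metabolism, 10 fell at both ages, with medians of -1.72 and -1.74. Slc6a9, a glycine transporter, fell by 2.03 in young mice (SE 0.15), and Abat, which breaks down GABA, by 1.95 (SE 0.17). Among transcription factors of astrocytes 10 of 11 genes could be tested, and 5 fell in young and 8 in middle-aged mice, with medians of -0.45 and -1.07. Hopx fell by 2.34 and 3.07 (SE 0.17 each) and Id4 by 2.06 (SE 0.20) and 3.06 (SE 0.21), and both were called lower with age in injured pools, by 0.77 and 0.99. They were 2 of 3 factors of the 10 called lower there, against 0.908% of all genes. The other, Sox8, a factor of glial cells, had the lowest value at -1.10 (SE 0.20, adjusted p = 0.013). In that comparison 8 of 10 oligodendrocyte markers were also called lower, and their part in these values was not tested. Sox2, a factor shared with progenitor cells, had log2 fold changes by injury of -0.07 and -0.23 (SE 0.18 each) and passed at neither age.

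Of the 14 genes of the fibroblast growth factor system, shares close to those of all genes were called in young mice, with 4 higher and 4 lower, and 6 were higher and 5 lower in middle-aged mice. The medians were -0.18 and 0.02. Fgf9 fell by 2.55 (SE 0.36) and Fgf1 by 2.05 (SE 0.15) in young mice. Fgf2 rose by 2.06 (SE 0.23), and Dusp6, a phosphatase induced by the ERK kinases downstream of these receptors, rose by 2.93 (SE 0.22). Fgfr3, the receptor among the members, fell in the same pools in which Dusp6 rose. Other genes of the list went either way. Etv1 had 7142, 8205 and 7686 raw counts in young naïve and 2805, 2327 and 2968 in young injured pools. Etv5 had 1014, 815 and 622 against 2083, 1781 and 2270. A link between Fgfr3 and Dusp6 was not tested.

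Reactive astrocyte genes went the other way, with 16 of 18 higher and 1 lower at both ages and medians of 2.94 and 2.14. Vim, the intermediate filament vimentin, rose by 4.66 (SE 0.18) in young and 3.58 (SE 0.17) in middle-aged mice, and Timp1, a protease inhibitor, by 5.83 (SE 0.34) and 5.88 (SE 0.33). Serpina3n, another protease inhibitor, rose by 5.24 and 3.64, and its difference between ages passed the test (-1.60, SE 0.27, adjusted p = 0.034). The lower gene was Gfap, the astrocyte intermediate filament, with 4954, 5203 and 6630.2 CPM in young naïve and 3216, 3515 and 3126 CPM in young injured pools. Gfap fell by 0.77 in young (SE 0.14, adjusted p = 0.00026) and by 1.11 in middle-aged mice (SE 0.14, adjusted p = 8.4e-06). Vim and several others of this list are also made by macrophages and fibroblasts, which were present in these pools.

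**Figure D5:**
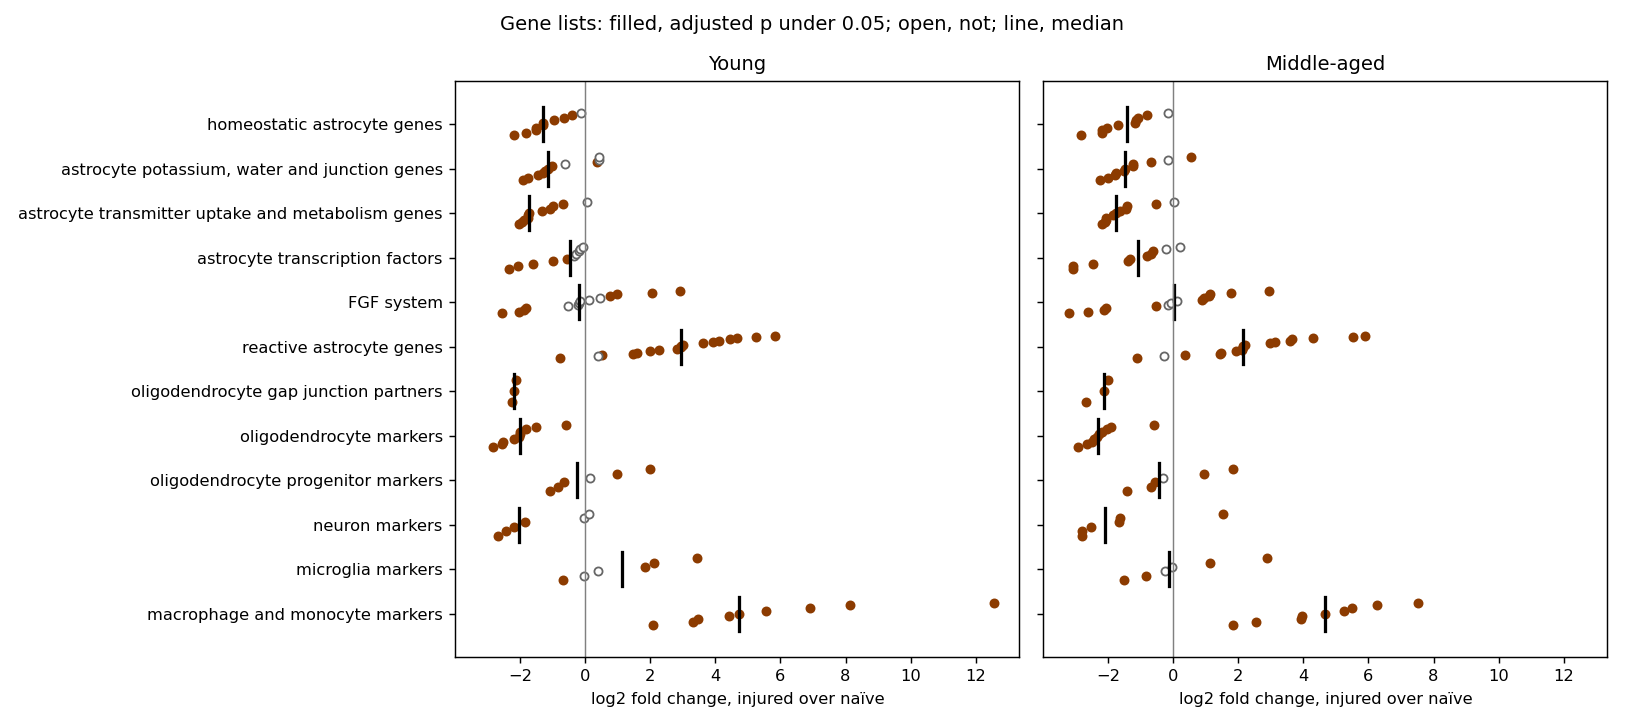
Log2 fold change by injury (x axes) for the members and 11 other gene lists (y axis) in young and middle-aged mice, with 1 point per gene, filled where the adjusted p was under 0.05, and a line at each list's median. The members and the other astrocyte function lists lie mostly below 0, reactive and macrophage genes above it, and oligodendrocyte markers below it.

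Other cell types moved with the same groups. All 9 macrophage and monocyte markers rose at both ages, and their summed level went from 85.4 to 118 CPM in young naïve to 6981 to 8509 CPM in young injured pools, and from 199.7 to 235 CPM in middle-aged naïve to 8645 to 9681 CPM in middle-aged injured pools. Ptprc, the leukocyte antigen CD45, rose by 4.73 (SE 0.19) and 3.96 (SE 0.17), and Ccr2, a monocyte chemokine receptor, was at 0 counts in all young naïve pools, which allows a level of up to 0.323 CPM in the shallowest of them (3 counts). All 10 oligodendrocyte markers fell at both ages, from the young naïve level above to 19698 to 22146 CPM in young injured pools, and from 55086 to 62952 CPM to 8614 to 13359 CPM in middle-aged mice. Mbp, a major myelin protein, fell by 2.004 and 2.50 (SE 0.17 each), and all 3 listed oligodendrocyte gap junction partners fell at both ages, among them Gjb1 by 2.25 and 2.11 and Gjc3 by 2.13 and 1.997. Of 6 neuron markers 4 fell in young mice, and 5 fell and 1 rose in middle-aged mice, with summed levels of 443 to 666 CPM in young injured, 1977 to 2480.1 CPM in middle-aged naïve and 537 to 638 CPM in middle-aged injured pools. The 5 fibroblast markers rose at both ages, from at most 104 CPM in sum in naïve pools to 402 to 1418 CPM in injured pools.

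Of 6 microglia markers, 3 rose and 1 fell in young mice and 2 rose and 2 fell in middle-aged mice, and P2ry12, a receptor of resting microglia, had log2 fold changes of 0.40 and -0.24 (SE 0.18 each) that passed in neither. Of 6 oligodendrocyte progenitor markers, 2 rose and 3 fell at both ages, among them Pdgfra with a rise of 0.99 and 0.94 (SE 0.13 each). Endothelial markers had 2 of 5 higher in both, and 1 lower in middle-aged mice, and pericyte markers 1 of 4 higher in both, with 2 lower in young and 3 lower in middle-aged mice. Only 2 of 4 ependymal markers could be tested, of which 1 fell in middle-aged mice, and 2 of 4 Schwann cell markers, of which 1 was called higher in young mice and none in middle-aged mice. The part of these cell types in the lower levels of the members was not tested.

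The genes whose pattern was most like the mean of the members (centred log2 CPM) were sought among 7454 other genes. Over the 12 pools the highest Pearson r were those of 1500004A13Rik (0.998), Psd2 (0.993), Kcnj10 (0.993), Mlc1 (0.993) and Ndrg2 (0.992). The pools share the large difference between naïve and injured groups, so r describes mostly that. After group means were subtracted, the highest were 1500004A13Rik (0.953), Desi1 (0.943), Amph (0.912), Elp4 (0.903) and Ttyh1 (0.892), over residuals of 12 pools in which middle-aged injured pool 3 was the farthest from its group, at 0.26. 1500004A13Rik, annotated as a processed transcript on chromosome 3 (88782943 to 88832547, minus strand), led both. It was at 93.0 to 96.1 CPM in young naïve, 85.0 to 89.9 CPM in middle-aged naïve, 39.1 to 43.3 CPM in young injured and 28.0 to 38.3 CPM in middle-aged injured pools. Among the members themselves, r with the mean of the other 9 over the 12 pools was 0.987 for Slc1a2 and 0.978 for S100b at the high end, and 0.497 for Aldh1l1 at the low end. This r too describes mostly the difference between naïve and injured groups. With group means subtracted, Aldh1l1 (0.352) was not the lowest, beside Gjb6 (0.335), Sox9 (0.339) and Slc1a3 (0.350), and Gja1 (0.782) was the highest.

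Upstream sequence of the members was read from RefSeq promoter windows of GRCm38.p6, of which 250 bases before the start of transcription were used. Windows of 8 of the 10 members were used, 9 in all, since Fgfr3 has 2. None was used for Aqp4 or Sox9. Shown are those of Gja1, the member called lower with age after injury, of Gjb6, its partner in the ratio, and of Slc1a3, the one window with a motif match, each 5′ to 3′ on the gene's strand.
Gja1, chr10:56377050-56377299, plus strand: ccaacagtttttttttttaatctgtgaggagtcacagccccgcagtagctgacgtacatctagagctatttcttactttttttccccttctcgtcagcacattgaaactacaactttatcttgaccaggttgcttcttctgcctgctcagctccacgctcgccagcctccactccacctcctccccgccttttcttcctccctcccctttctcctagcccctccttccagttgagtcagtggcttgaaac
Gjb6, chr14:57133612-57133861, minus strand: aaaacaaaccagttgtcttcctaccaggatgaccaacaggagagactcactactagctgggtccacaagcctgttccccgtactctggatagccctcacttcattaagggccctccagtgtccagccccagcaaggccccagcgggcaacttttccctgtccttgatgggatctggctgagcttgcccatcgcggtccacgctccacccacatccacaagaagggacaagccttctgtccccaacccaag
Slc1a3, chr15:8710808-8711057, minus strand: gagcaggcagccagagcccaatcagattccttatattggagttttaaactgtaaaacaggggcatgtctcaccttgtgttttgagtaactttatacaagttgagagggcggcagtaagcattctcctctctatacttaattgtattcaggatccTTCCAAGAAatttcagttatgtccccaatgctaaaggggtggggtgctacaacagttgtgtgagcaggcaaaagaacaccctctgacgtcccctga
None of the 3 windows contains an annotated exon of its own gene. Capitals in the Slc1a3 window mark a match to TTCNNNGAA, the letters bound by STAT factors, 96 bases before the start. On both strands this motif occurred in 7.02% of 32851 promoter windows of the same length. The SOX motif AACAAT was found in 9.42% of windows and the nuclear factor I motif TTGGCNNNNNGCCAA in 0.0365%. Neither had a match in the members' windows that were used, nor did the STAT motif in the others of these windows. The motifs do not overlap each other in these windows, and a match is a description of letters only.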

How the data were processed

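Per the labels, the authors checked reads with FastQC 0.11.4, aligned them to GRCm38 with TopHat2 2.0.10 and Bowtie 1.1.2, and counted them per gene with featureCounts. The deposited values are raw counts per Ensembl gene. The annotation release and strand setting are not given in the sources used here. The analysis used edgeR 4.0.16 (R 4.3.3): low counts were filtered by group, libraries scaled by TMM, and 1 quasi-likelihood model fitted to all 12 pools, with Benjamini-Hochberg adjustment over 15866 genes and a threshold of 0.05. Log2 CPM used a prior count of 2. DESeq2 1.42.0, other scalings, filters, a replicate block and leaving out each pool were alternatives. Named were all members, the 2 highest and 2 lowest genes by fold in each list, defining markers, and the 5 genes most like the members in each measure. Genes named beside these were chosen after their values were seen. Exon lengths and positions are from GENCODE M21. The members and lists were chosen with earlier results of these data known. Counts were also simulated for the young injury comparison (15530 genes), with a change set in 195 of them. There 54.1% of 2-fold and 89.7% of 4-fold changes were recovered, and 4.76% of calls were false. In the data 8660 genes were called in this comparison, and a simulation with that many changes was not tested. Replicates of a group correlated at r of 0.937 to 0.988 and differed by more than sampling noise (chi-square per degree of freedom 7.22 to 33.7).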

Additional observations from a re-analysis of the deposited data

How the results depend on the processing

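The count of members lower after injury was 9 at both ages in every alternative, except 8 in young mice with library totals alone and without young injured pool 1. The age comparisons depended more on the processing. Members called between ages in naïve mice were 1 as reported, 2 without the low-count filter, 0 with only the naïve pools fitted and 3 with DESeq2, and 0 to 2 when a pool was left out. All genes called there were 603, against 1153, 71 and 1073, and 261 to 800 when a pool was left out. Members called between ages in injured mice were 1, against 3 without the filter and 2 with only the injured pools, and 1 to 2 when a pool was left out. All genes called there were 182, against 437 without the filter, 818 with only these pools and 441 with DESeq2, and 45 to 410 when a pool was left out. For the difference of injury effects, members called were 0 and 2 with DESeq2, and all genes called were 22, 329 without the filter and 228 with DESeq2, and 3 to 56 when a pool was left out. The cause of these changes was not tested. The ratio of Gja1 to Gjb6 shifted by 0.27 to 0.47 when a pool was left out.

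Signs turned for values near 0. Aldh1l1 in young mice was 0.0700 with library totals, 0.00336 without young injured pool 1 and -0.226 to 0.00336 when a pool was left out. Gjb6 between naïve ages was -0.000325 with upper-quartile scaling, -0.0132 without the filter, and -0.217 to 0.159 when a pool was left out, being below 0 without young naïve pool 3 (-0.217), middle-aged naïve pool 1 (-0.0399) or 2 (-0.0475). Between injured ages Glul was 0.0579 without middle-aged injured pool 1 (-0.125 to 0.0579 when a pool was left out) and Sox9 0.00729 without young injured pool 3 (from -0.165). For the difference of injury effects Aqp4 was -0.00606 without middle-aged naïve pool 2 and -0.171 without middle-aged injured pool 3 (up to 0.310), and Aldh1l1 was 0.0273 without middle-aged naïve pool 2, 0.0632 without young injured pool 2 and 0.0602 without middle-aged injured pool 1 (from -0.166).

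Replicate numbers did not pair the pools: deviations of same-numbered pools correlated at r of -0.113 to 0.153, with 2 of 12 over 0.1, and those of other numbers at -0.174 to 0.172. With the replicate number as a block, members called were 9 in young, 9 in middle-aged, 1 and 1 between ages and 0 for the difference, and all genes called were 8577, 9153, 529, 189 and 31. The lowest member count was 154, and 3 pools per group limit the precision. By the study's methods RNA was amplified when the libraries were built, and the part of this in the counts was not tested.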
